A study of Mus musculus with 6 samples.

Results

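The genes described are 7 subunit genes of the GABA-A receptor family, Gabra2, Gabra3, Gabra4, Gabra6, Gabrb1, Gabrb2 and Gabrd, read by their symbols from count tables of 55341 genes. All 7 passed the filter on low counts, as did 16729 genes in all, and the family holds 19 subunit genes in the lists used. RNA-seq was done on cultures of cerebellar granule neurons (CGNs) purified from the cerebella of CD1-IGS mouse pups and treated with AraC, which blocks cell division. The vehicle DMSO, or GSK-126, an inhibitor of the methyltransferase EZH2, was added once at DIV3 (day 3 in vitro), and by the study's methods RNA was taken at DIV5, while the labels name DIV3 and cerebellar tissue. Each group had 3 libraries. Both groups were unmodified CD1-IGS cultures that differed only in the agent, and 1 replicate was CGNs from pooled litters. The p-values of fits on group alone therefore measure the spread between such cultures. Those of fits with the replicate number as a block measure the spread of the treatment difference between pairs of cultures. The dose of GSK-126 at DIV3 is not given in the sources used here.

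The libraries had between 7407189 and 13092763 counts on genes. The replicate numbers 1 to 3 are shared by the groups, and libraries with the same number deviated together from their group means (correlations across 16729 genes of 0.561, 0.634 and 0.487), so they are treated as pairs. Pair 2 stood apart from the others on the main principal component, which held 46.4% of the variance. All 6 granule neuron identity genes (Zic1, Zic2, Neurod1, Pax6, Barhl1 and Etv1) were expressed, with a sum of between 2214 and 4144 CPM (library-scaled counts, with TMM factors), but 8 markers of astroglia also summed to between 2239 and 7682 CPM. The 8 vascular and fibroblast markers listed summed to between 4984 and 7710 CPM, above the identity sum in each library. In bulk RNA of such cultures, fewer cells of a type and less RNA per cell cannot be told apart.

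GABA-A receptors are chloride channels assembled from several subunits, usually alpha, beta and a gamma or delta subunit, and GABA released by cerebellar Golgi cells opens them on granule neurons. The alpha subunit sets much of the receptor's response to GABA and to drugs. Gabra6 encodes the alpha6 subunit, which in the cerebellum is made by granule neurons as they mature, and Gabrd encodes the delta subunit, which joins alpha6 in receptors outside synapses that carry tonic inhibition. Gabrb2 encodes a beta subunit that granule neurons make in large amounts. Gabra2 and Gabra3 encode alpha subunits that are typical of the immature brain in this region, Gabra4 encodes an alpha subunit that pairs with delta in forebrain neurons, and Gabrb1 encodes a beta subunit that is also made by astroglia. EZH2 is the catalytic subunit of PRC2, which places the repressive mark H3K27me3.

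Several of the 7 genes are neighbours. Gabra6 (ENSMUSG00000020428.13, chr11:42306437-42321072, minus strand) and Gabrb2 (ENSMUSG00000007653.12, chr11:42419757-42629028, plus strand) are 98.7 kb apart. Gabra2 (ENSMUSG00000000560.9, chr5:70957597-71095849, minus strand) lies 474 kb from Gabra4 (ENSMUSG00000029211.11, chr5:71569749-71658308, minus strand). Gabrb1 (ENSMUSG00000029212.11, chr5:71658113-72149037, plus strand) starts within Gabra4, and 46 bp of their exons overlap on opposite strands, so reads there are uncertain where the counting did not use strand. Gabrd (ENSMUSG00000029054.8, chr4:155384980-155398112, minus strand) and Gabra3 (ENSMUSG00000031343.13, chrX:72432681-72656848, minus strand) share a chromosome with none of the other 6. Coordinates are those of GENCODE M21 on GRCm38.

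Promoters are shown for the 2 neighbours on chromosome 11 that fell and for Gabra2, which rose, so that their starts can be compared. Each is the 250 bases before a RefSeq start (GRCm38.p6), written 5′ to 3′ on the gene's strand, with motif matches in capitals. The regions are chr11:42321073-42321322 (minus strand) for Gabra6, chr11:42420190-42420439 (plus strand) for the first start of Gabrb2, and chr5:71095850-71096099 (minus strand) for Gabra2.
Gabra6: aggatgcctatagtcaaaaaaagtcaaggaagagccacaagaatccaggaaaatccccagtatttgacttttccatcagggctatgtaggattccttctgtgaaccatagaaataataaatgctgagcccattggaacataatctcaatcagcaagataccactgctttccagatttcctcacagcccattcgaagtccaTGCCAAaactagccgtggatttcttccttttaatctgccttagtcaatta
Gabrb2: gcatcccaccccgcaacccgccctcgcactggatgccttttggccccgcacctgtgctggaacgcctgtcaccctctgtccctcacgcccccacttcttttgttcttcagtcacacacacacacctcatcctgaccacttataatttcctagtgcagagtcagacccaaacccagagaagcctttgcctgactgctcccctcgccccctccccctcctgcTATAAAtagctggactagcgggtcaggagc
Gabra2: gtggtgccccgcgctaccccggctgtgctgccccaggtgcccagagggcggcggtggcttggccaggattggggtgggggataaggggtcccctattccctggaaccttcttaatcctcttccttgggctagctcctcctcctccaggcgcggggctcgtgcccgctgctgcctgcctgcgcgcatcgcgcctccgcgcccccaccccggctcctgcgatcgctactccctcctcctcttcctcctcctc
The 4 motifs searched on both strands do not overlap one another and are the NFI half-site TTGGCA (held by 12.3% of 32841 promoters of this length), the ZIC core CCTGCTG (8.44%), the CRE TGACGTCA (1.55%) and the TATA element TATAAA (12.4%). Gabra6 held 1 NFI half-site, on the reverse strand, and the first Gabrb2 start held 1 TATA element. The Gabra2 window held none of these letters. RefSeq starts matched 6 of the 7 genes, and of the windows not shown, those of Gabra3 held the TATA element and 1 of Gabrb1 held the ZIC core. GC content was 40.8% for Gabra6, 58.8% for the first Gabrb2 start and 70.0% for Gabra2, against a median of 52.4% over the promoters. These windows held 2, 8 and 18 CpG dinucleotides against a median of 6. The later Gabrb2 starts, not shown, had 54.0% and 36.8% GC with 8 and 4 CpG dinucleotides.

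GSK-126 cultures had less RNA of the granule neuron subunits Gabra6, Gabrd and Gabrb2 and more of Gabra2, while Gabra3, Gabra4 and Gabrb1 were not called. With the replicate number as a block, 3 of the 7 genes were called lower, where 5.09% of all genes tested were (851 of 16729), and 1 was called higher, where 3.35% were (561), by edgeR quasi-likelihood with Benjamini-Hochberg correction. Under scaling by total counts the split over all genes was 714 higher and 707 lower, and the same 4 subunit genes were called. The fit on group alone called 0 of the 7 and 0 of all genes tested (0%) by edgeR quasi-likelihood with Benjamini-Hochberg correction. At an unadjusted p under 0.05 from the same edgeR fit there were 296 genes higher and 369 lower, among them Gabra2 and Gabra6. Of the 16729 genes tested this is a smaller share than the 0.05 that would pass with no difference at all. The smallest adjusted p of that edgeR fit was 0.386. DESeq2 without the block called 19 higher and 2 lower. DESeq2 with the block called the same 4 subunit genes, where it called 7.71% of the 12332 genes with an adjusted p. Within pairs, 5 of the 7 were lower with GSK-126 in every pair, as were 22.8% of all genes tested, and 1 was higher in every pair, as were 19.5%. Gabra2 was the only one of the 7 whose groups did not overlap, which held for 9.44% of all genes tested.

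**Figure D1:**
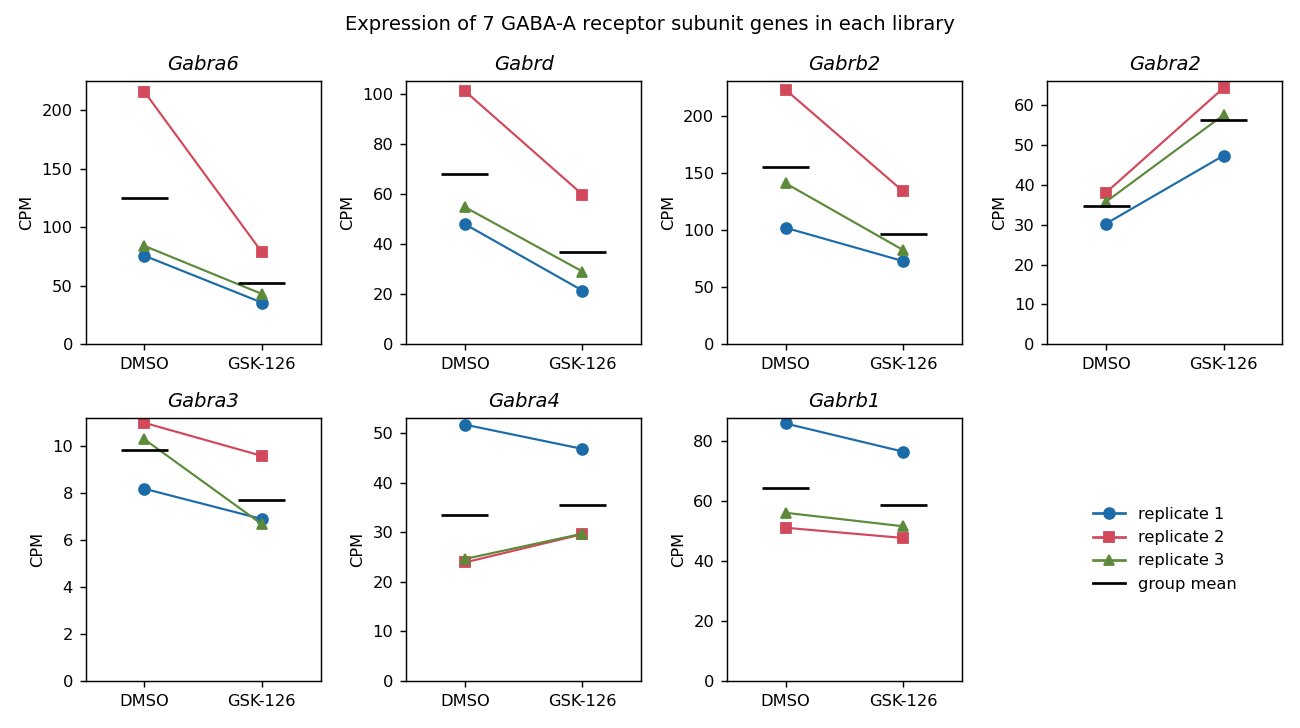
CPM of each subunit gene (y axis, from 0) in the DMSO and GSK-126 libraries (x axis), with lines joining libraries of the same replicate number and bars at the group means. Gabra6, Gabrd and Gabrb2 slope down and Gabra2 slopes up in all 3 pairs, and replicate 1 lies highest for Gabra4 and Gabrb1 in both groups.

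Gabra6, the alpha subunit of mature granule neurons, had 75.7, 216 and 84.1 CPM in DMSO replicates 1, 2 and 3 and 35.6, 78.7 and 43.0 CPM in GSK-126 replicates 1, 2 and 3. Replicate 2 was highest in each group, and the groups overlapped only because the GSK-126 replicate 2 library lay just above the lowest DMSO library. Within pairs the Gabra6 level with GSK-126 was 0.471, 0.364 and 0.511 of that with DMSO. The log2 fold change of Gabra6 on group alone was -1.26 with a standard error of 0.46 (adjusted p = 0.953), and with the block -1.19 with a standard error of 0.10 (adjusted p = 1.5e-07), by edgeR quasi-likelihood with Benjamini-Hochberg correction. On group alone, the Gabra6 value was -0.61 when the DMSO library of pair 2 was left out and -1.66 when the GSK-126 library of that pair was.

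Gabrd, the delta subunit, had 47.9, 101 and 54.7 CPM with DMSO and 21.4, 59.7 and 29.0 CPM with GSK-126, in replicate order. As for Gabra6, the replicate 2 libraries were highest in both groups, and GSK-126 replicate 2 reached into the DMSO range. The within-pair folds were 0.448, 0.593 and 0.530. With the block Gabrd differed by -0.93 on the log2 scale, with a standard error of 0.11 (adjusted p = 9.2e-06), against -0.89 on group alone, with a standard error of 0.42 (adjusted p = 0.953), by edgeR quasi-likelihood with Benjamini-Hochberg correction.

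Gabrb2, the beta subunit gene next to Gabra6, had 102, 223 and 141 CPM with DMSO and 72.8, 134 and 82.5 CPM with GSK-126. The groups overlapped again through replicate 2, and the fall was present in each pair, to 0.715, 0.6 and 0.584 of the DMSO level. With the block Gabrb2 differed by -0.67 on the log2 scale, with a standard error of 0.08 (adjusted p = 2.3e-05), and on group alone by -0.69, with a standard error of 0.32 (adjusted p = 0.953), by edgeR quasi-likelihood with Benjamini-Hochberg correction. Without the DMSO library of pair 2 the group-alone values were -0.33 for Gabrb2 and -0.48 for Gabrd, and without the GSK-126 library of that pair -0.98 and -1.41.

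Gabra2, an alpha subunit of the immature cerebellum, went the other way. It had 30.3, 38.1 and 35.8 CPM with DMSO and 47.4, 64.4 and 57.6 CPM with GSK-126. All 3 GSK-126 libraries lay above all 3 DMSO libraries, with a mean of 34.8 ± 4 CPM (SD, n = 3) for DMSO and 56.4 ± 8.57 CPM (SD, n = 3) for GSK-126. The within-pair folds of Gabra2 were 1.56, 1.69 and 1.61. The log2 value was 0.70 in either fit, with a standard error of 0.16 on group alone (adjusted p = 0.953) and 0.10 with the block (adjusted p = 1.7e-04), by edgeR quasi-likelihood with Benjamini-Hochberg correction. Leaving out a library moved the Gabra2 value on group alone only between 0.61 and 0.82.

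The calls of Gabra6, Gabrd, Gabrb2 and Gabra2 held in each block fit without 1 pair. Without pair 2, which stood apart, the log2 fold changes were -1.03 for Gabra6, -1.03 for Gabrd, -0.63 for Gabrb2 and 0.67 for Gabra2 (adjusted p = 8.9e-05, 4.3e-04, 0.0011 and 0.00499, edgeR quasi-likelihood, Benjamini-Hochberg).

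Gabra3 was the least expressed of the 7, with 8.19, 11.0 and 10.3 CPM in the DMSO libraries and 6.90, 9.59 and 6.68 CPM in the GSK-126 libraries. The groups overlapped, although each GSK-126 library was below its DMSO partner. With the block the log2 fold change was -0.35 (95% interval -0.77 to 0.08, adjusted p = 0.345, edgeR quasi-likelihood, Benjamini-Hochberg). These values rest on 50 to 118 counts per library.

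Gabra4 had 51.7, 23.9 and 24.6 CPM with DMSO and 46.8, 29.6 and 29.7 CPM with GSK-126. Replicate 1 was the high library in both groups, and the pairs differed in sign, with folds of 0.906, 1.24 and 1.21. The log2 fold change was 0.09 on group alone and 0.13 with the block (95% interval of the latter -0.13 to 0.39, adjusted p = 0.593, edgeR quasi-likelihood, Benjamini-Hochberg). On group alone the Gabra4 value changed sign when 1 library was left out, to -0.10 for the DMSO library of pair 2, -0.09 for that of pair 3 and -0.15 for the GSK-126 library of pair 1.

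Gabrb1 had 85.9, 51.1 and 56.1 CPM with DMSO and 76.5, 47.7 and 51.6 CPM with GSK-126. Its replicate 1 libraries were again highest, and the pairs were close, at 0.890, 0.934 and 0.918 of the DMSO level. With the block the log2 fold change of Gabrb1 was -0.13 (95% interval -0.32 to 0.06, adjusted p = 0.444, edgeR quasi-likelihood, Benjamini-Hochberg), and on group alone it changed sign when the DMSO library of pair 1 (0.15) or the GSK-126 library of pair 2 (0.01) was left out.

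**Figure D2:**
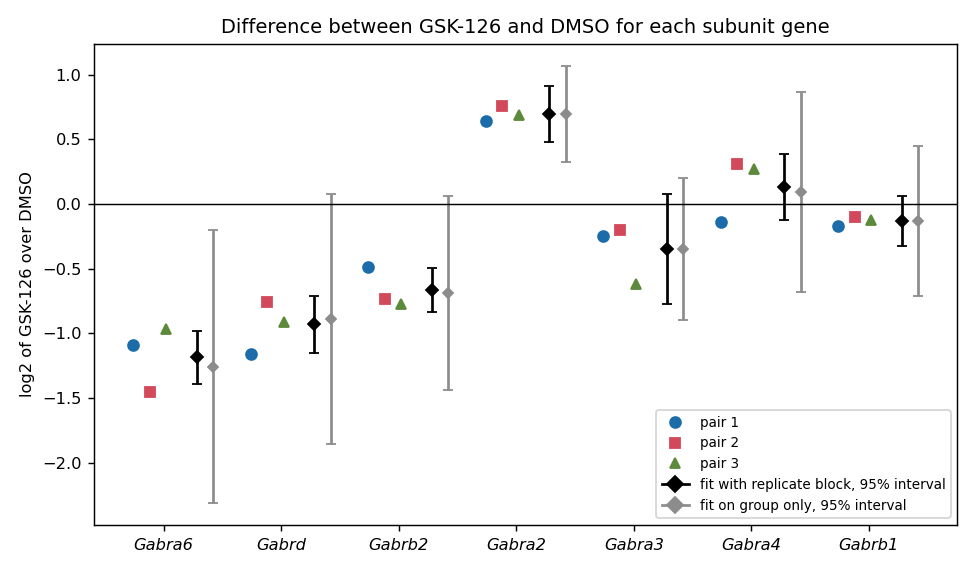
Log2 of GSK-126 over DMSO (y axis) for each subunit gene (x axis), as the value of each pair (coloured), the block estimate (black) and the group-only estimate (grey), bars showing 95% intervals. The block intervals of Gabra6, Gabrd and Gabrb2 lie below 0 and that of Gabra2 above 0, and the group-only intervals are wider for all 7 genes.

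Levels were compared between genes as CPM per kb of exon. With DMSO, Gabra6 had 50.3 ± 31.6 CPM per kb (SD, n = 3), Gabrb2 24.4 ± 9.69 and Gabrd 23.6 ± 9.99. The ranges of these neighbours overlapped, but Gabra6 was above Gabrb2 within each of the 3 DMSO libraries. All 3 lay above Gabra4 (5.49 ± 2.61), Gabrb1 (4.65 ± 1.36) and Gabra2 (4.55 ± 0.524), which did not differ beyond their spread. Gabra3 was lowest, at 2.5 ± 0.371 CPM per kb, below the range of Gabra2. With GSK-126 the order on this scale was Gabra6 (21.1 ± 9.26 CPM per kb, SD, n = 3), Gabrb2 (15.1 ± 5.14), Gabrd (12.8 ± 7.04), Gabra2 (7.39 ± 1.12), Gabra4 (5.81 ± 1.63), Gabrb1 (4.23 ± 1.13) and Gabra3 (1.97 ± 0.413). Gabra2 had rank 6 by its mean with DMSO and rank 4 with GSK-126, where its range overlapped that of Gabra4, which it exceeded in 2 of 3 libraries. Gabra2 stayed below Gabrd within all 3 GSK-126 libraries.

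**Figure D3:**
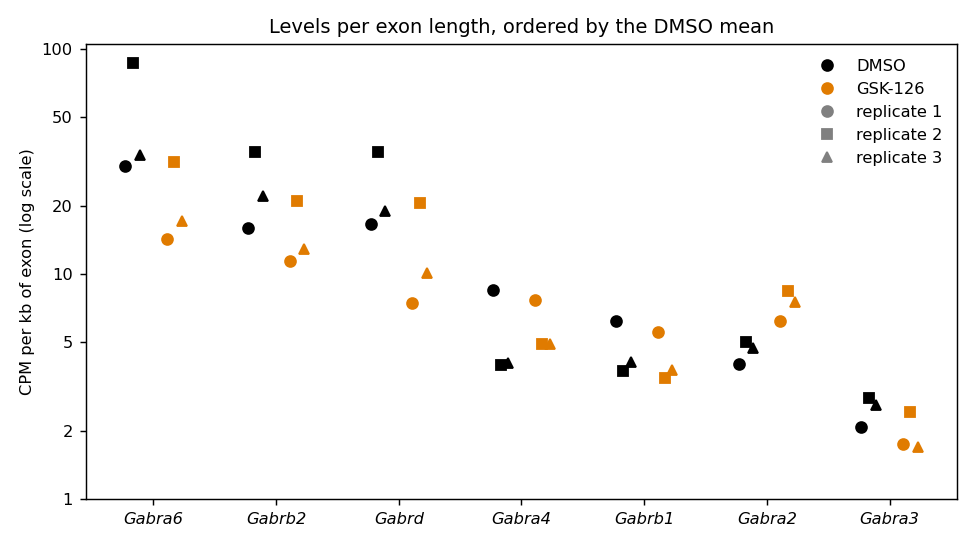
CPM per kb of exon (y axis, log scale) of each subunit gene, in order of the DMSO mean, with 1 point per library. The 3 upper genes and Gabra2 approach each other with GSK-126: Gabra6 spans 14.3 to 31.6 and Gabra2 spans 6.20 to 8.43 CPM per kb.

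Ratios between subunit genes within a library do not depend on depth or scaling. The ratio of Gabra6 counts to Gabra2 counts was 2.49, 5.66 and 2.35 in the DMSO libraries and 0.752, 1.22 and 0.747 in the GSK-126 libraries. Every DMSO library was above every GSK-126 library, and Gabra2 had more counts than Gabra6 in 2 of the GSK-126 libraries and in none of the DMSO libraries. These counts are not scaled by exon length, which is 7640 bp for Gabra2 and 2489 bp for Gabra6. Per kb of exon, Gabra6 stayed above Gabra2 in each GSK-126 library (14.3, 31.6 and 17.3 against 6.2, 8.43 and 7.54 CPM per kb). The mean log2 ratio went from 1.68 ± 0.71 to -0.18 ± 0.41 (SD, n = 3 each), a difference of -1.86, and in an exact permutation test, two-sided, p was 0.1, the smallest that 3 against 3 libraries allow (0.4 after Benjamini-Hochberg adjustment over the 4 ratios tested). Within pairs, the log2 ratio differed by -1.73, -2.21 and -1.65.

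The Gabra6 to Gabrd ratio, of 2 subunits of the same tonic receptor, was 1.58, 2.15 and 1.54 with DMSO and 1.66, 1.32 and 1.48 with GSK-126. The groups overlapped, and the log2 difference of -0.23 had an exact permutation p of 0.4 (two-sided, adjusted 0.5). The Gabrd to Gabra4 ratio was 0.926, 4.21 and 2.22 with DMSO and 0.458, 2.01 and 0.978 with GSK-126, so that the groups overlapped while the pairs differed by -1.02, -1.07 and -1.18 on the log2 scale (exact permutation p over the 6 libraries 0.3, two-sided, adjusted 0.5). The Gabrb2 to Gabrb1 ratio was 1.18, 4.35 and 2.51 with DMSO and 0.951, 2.80 and 1.60 with GSK-126, again overlapping, with a log2 difference of -0.54 (exact permutation p = 0.5, two-sided, adjusted 0.5). When 1 library was left out, the log2 difference ranged from -2.10 to -1.46 for Gabra6 to Gabra2. It ranged from -0.31 (without DMSO replicate 3) to -0.07 (without DMSO replicate 2) for Gabra6 to Gabrd. For Gabrd to Gabra4, leaving out a DMSO library gave -1.66 (replicate 1) or -0.57 (replicate 2), and leaving out a GSK-126 library gave -0.55 (replicate 1) or -1.62 (replicate 2). For Gabrb2 to Gabrb1 the same 4 libraries in that order gave -1.03, -0.09, -0.15 and -0.93. Flipping the signs of the 3 pair differences cannot give an exact p below 0.25, which was the value for each ratio except Gabra6 to Gabrd (0.75).

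**Figure D4:**
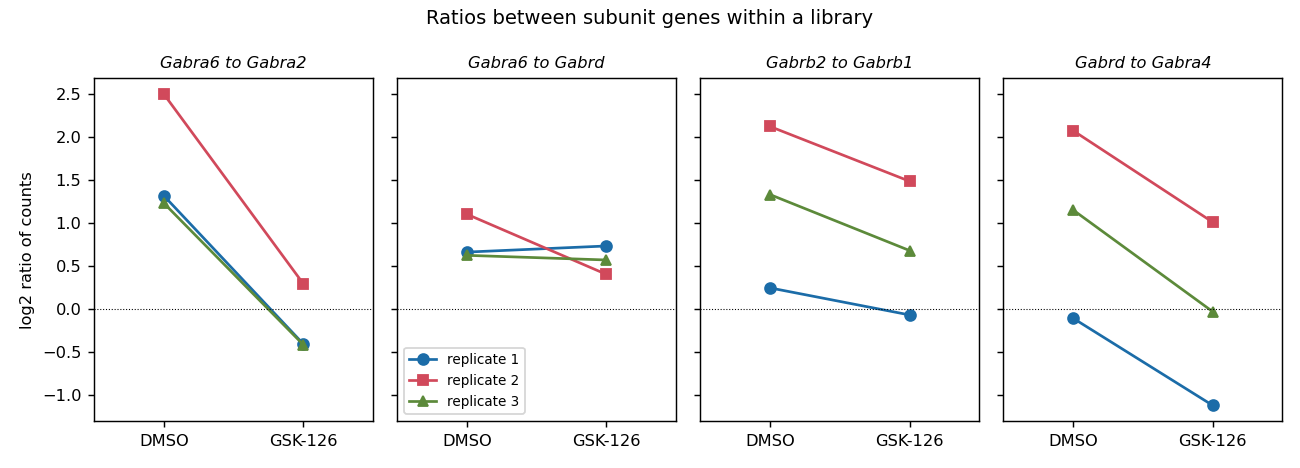
Log2 ratio of counts between pairs of subunit genes (y axis) in DMSO and GSK-126 libraries (x axis), lines joining libraries of the same replicate number. Only the Gabra6 to Gabra2 ratio separates the groups, and the Gabrb2 to Gabrb1 and Gabrd to Gabra4 ratios are lower with GSK-126 in each pair from very different starting levels.

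The spread between replicates followed different patterns in different subunit genes. Over the 6 libraries, log2 CPM of Gabra6, Gabrb2 and Gabrd correlated at 0.971 to 0.972 with one another. Gabra3 correlated with these 3 at 0.894 to 0.951, and Gabra4 with Gabrb1 at 0.902. Gabra2 did not correlate above 0 with any of the other 6. These correlations are descriptions over libraries that share the treatment and the pairs. Gabra6 in replicate 2 was 2.7 times the mean of the other DMSO libraries and 2.00 times that of the other GSK-126 libraries, whereas Gabra4 in replicate 1 was 2.13 and 1.58 times the mean of the others.

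The pan-neuronal, granule neuron identity, late granule neuron and Purkinje cell and interneuron sums fell in each pair, as Gabra6, Gabrd and Gabrb2 did. The early granule neuron, oligodendrocyte, microglial and vascular and fibroblast sums rose in each pair, and the astroglial and dividing-cell sums differed in sign. The summed CPM of 11 pan-neuronal genes was 3381, 5827 and 3933 with DMSO and 2617, 4354 and 3070 with GSK-126, highest in replicate 2 as for Gabra6, and the pairs differed by -0.37, -0.42 and -0.36 on the log2 scale. With the block, 8 of these genes were called lower and 1, Tubb3, higher. DESeq2 with the block did not call Tubb3 (adjusted p = 0.0512). Among the 8, Nefl and Nefm share 1108 bp of exons on opposite strands, so reads there are uncertain where the counting did not use strand. Beside the block calls here and in the next paragraph, 5.09% of all genes tested were called lower and 3.35% higher. The 6 late granule neuron genes (Grin2c, Grm4, Wnt7a, Olfm3, Slc17a7 and Cbln3) were all called lower with the block by edgeR, though DESeq2 with the block did not call Grin2c (adjusted p = 0.126). They summed to 401, 1228 and 507 CPM with DMSO and 215, 609 and 281 CPM with GSK-126, with log2 differences within pairs of -0.90, -1.01 and -0.85, beside -1.09, -1.46 and -0.97 for Gabra6. Over the 6 libraries Gabra6, Gabrd and Gabrb2 correlated at 0.978 to 0.987 with this late sum. With the pan-neuronal sum they correlated at 0.960 to 0.984, and with the granule neuron identity sum at 0.965 to 0.991. Of the 6 granule neuron identity genes, 3 were called lower and 1, Barhl1, higher. DESeq2 with the block did not call Barhl1 (adjusted p = 0.116). Of the early granule neuron genes, 2 of 7 tested (Ebf3 and Jag1) were called higher and none lower. DESeq2 with the block kept Ebf3 but not Jag1 (adjusted p = 0.127). Over the 6 libraries Gabra2 correlated at 0.408 with the early sum and at 0.605 with the vascular and fibroblast sum. Gabra3 correlated with the early sum at -0.861.

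The astroglial sum was 7333, 2337 and 4036 CPM with DMSO and 7682, 2239 and 4017 CPM with GSK-126. It was highest in replicate 1, as Gabra4 and Gabrb1 were, and it correlated with Gabrb1 at 0.922 and with Gabra4 at 0.843 over the 6 libraries. This was not particular to astroglia. The dividing-cell sum correlated at 0.909 with Gabrb1 and 0.831 with Gabra4. The oligodendrocyte sum gave 0.763 and 0.788 and the microglial sum 0.712 and 0.777, and all of these sums were highest in replicate 1. Of the 8 astroglial genes, 2 (Gdf10 and S100b) were called higher with the block and none lower, Gdf10 not in DESeq2 (adjusted p = 0.091). The 10 Purkinje cell and interneuron markers summed to between 250 and 278 CPM with DMSO and between 193 and 226 CPM with GSK-126, with 3 called lower and none at 0. Microglial (2 of 7), vascular and fibroblast (3 of 7 tested) and oligodendrocyte (1 of 8) markers had calls in the higher direction only, and none of 4 genes of dividing cells was called. The vascular and fibroblast sum was higher with GSK-126 in each pair, with log2 differences of 0.365, 0.107 and 0.137. For the microglial sum they were 0.301, 0.512 and 0.228. The part of these cell types in the subunit results was not tested.

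**Figure D5:**
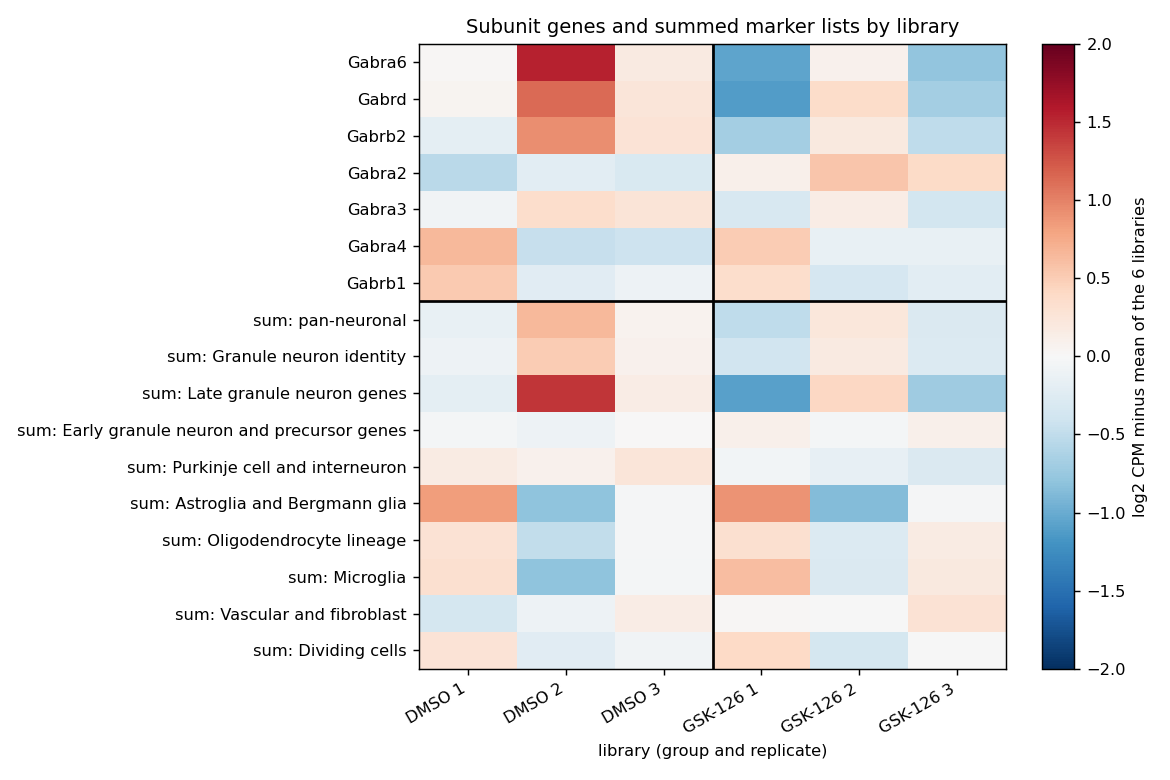
Log2 CPM minus the mean of the 6 libraries (colour) for the 7 subunit genes and 10 summed marker lists (rows) in each library (columns). Gabra6, Gabrd and Gabrb2 share the pattern of the pan-neuronal, identity and late granule neuron sums, high in replicate 2 and lower with GSK-126. Gabra4 and Gabrb1 are high in replicate 1, as are the astroglial, oligodendrocyte, microglial and dividing-cell sums.

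Of the 12 other subunit genes listed for the family, 8 passed the filter, and with the block 3 of them were called lower and none higher, with a median log2 fold change of -0.31 against -0.01 over all genes tested. The median over the 7 genes described was -0.35. Among 43 genes of the wider GABA pathway, these 12 included, 38 were tested and 14 were called lower and 1 higher with the block. Over all genes tested, 5.09% were called lower and 3.35% higher, the shares to set beside this count and each partner list. The fit on group alone called none of the 38 by edgeR quasi-likelihood with Benjamini-Hochberg correction, while 8 had an unadjusted p under 0.05 in the same edgeR fit. Over all 16729 genes tested, 296 were higher and 369 lower at that p.

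Genes that anchor and traffic GABA-A receptors had a median log2 fold change of -0.08, with 4 of 14 called lower and 1 higher with the block. Hap1, which returns internalized receptors to the surface, went from 92.1 ± 8.44 to 58.0 ± 13.7 CPM (log2 fold change -0.68, adjusted p = 2.2e-04, edgeR quasi-likelihood, Benjamini-Hochberg). Igsf9b, an adhesion protein of inhibitory synapses, went from 358 ± 128 to 228 ± 74.6 CPM (-0.64, adjusted p = 5.4e-06, same edgeR fit). Gphn, which encodes the scaffold protein gephyrin of inhibitory synapses, went from 98.1 ± 22.6 to 75.9 ± 13.8 CPM (-0.37, adjusted p = 0.00886, edgeR), a call lost without pair 1 or pair 2 (adjusted p = 0.0743 and 0.0739, edgeR), and 147 bp of its exons overlap Gm48226 on the opposite strand. Gabarap, which binds the gamma subunits and carries receptors through the cell, rose from 181 ± 32.6 to 237 ± 27.9 CPM (0.40, adjusted p = 0.0014, edgeR). All these values are SD over n = 3 libraries per group, with log2 fold changes and adjusted p from the block fit.

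Of 8 genes for GABA synthesis, uptake and breakdown, 5 were called lower with the block and none higher, with a median of -0.44. Slc32a1, the vesicular GABA transporter, went from 59.4 ± 4.96 to 36.4 ± 9.36 CPM (log2 fold change -0.72, adjusted p = 0.0015, edgeR). Gm14205, on the opposite strand, shares 697 bp with Slc32a1 exons. Gad1 and Gad2, which make GABA from glutamate, differed by -0.32 and -0.52 (adjusted p = 0.0163 and 0.0266, edgeR). The Gad1 call was lost without pair 1 or pair 3 (adjusted p = 0.0726 and 0.166, edgeR), and the Gad2 call without any 1 pair (adjusted p of 0.0604 to 0.127, edgeR) and in DESeq2. Slc6a13, a GABA transporter of the meninges, differed by -0.61 (adjusted p = 0.047, edgeR), with 20.3 ± 23.8 CPM in the DMSO group, and its call was lost without pair 1 or pair 2 (adjusted p = 0.654 and 0.0998, edgeR) and in DESeq2. Gad1, Gad2 and Slc32a1 also stand in the list of Purkinje cell and interneuron markers.

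Slc12a5 (KCC2), the chloride exporter that makes GABA inhibitory in mature neurons, went from 399 ± 138 to 250 ± 90.2 CPM (SD, n = 3 each), with a log2 fold change of -0.68 (adjusted p = 2.9e-06, edgeR quasi-likelihood, Benjamini-Hochberg). It was the only 1 of 4 chloride transport genes called with the block. Among the GABA-B receptor genes, Gabbr2, the subunit that couples to G proteins, differed by -0.53 (adjusted p = 1.1e-04, edgeR), 1 of 4 tested, and Kctd8, an auxiliary subunit, by -0.29 (adjusted p = 0.169, edgeR).

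The genes whose log2 CPM was most like that of each subunit gene over the 6 libraries were taken from 15219 genes with a mean log2 CPM over 1. They were 1700018A23Rik, Kif3a and Arhgef7 for Gabra6 (Pearson r of 0.9980 to 0.9996), Jph3, Sema4c and Flywch1 for Gabrd (0.9975 to 0.9995), and Gm9899, Rnf122 and Slc15a3 for Gabrb2 (0.9971 to 0.9985). For Gabra2 they were Epb41l4aos, Psmc4 and Atf4 (0.9816 to 0.9928). For Gabra3 they were Arntl, 3830408C21Rik and Hdac2, for Gabra4 Ptpa, Tspan15 and Gm16350, and for Gabrb1 Itih5, Gpam and Pum3 (0.9883 to 0.9928 for these 3 genes). At 0.9816 or more, these were the highest of 15219 values for each subunit gene, over 6 libraries that share the treatment and the pairs. A high r therefore follows in part from the choice, and no p is given.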

How the data were processed

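Reads of 6 RNA-seq libraries were trimmed by the authors with Trimmomatic 0.38, aligned with STAR 2.7.2b and counted per gene with HTSeq, and the deposited files hold raw counts of each library with no normalization. Versions are from the submitters' processing notes, and the strand setting of the counting is not given in the sources used here. The 5 closing lines of each table, which name no gene, held 58.7% to 60.7% of the listed reads and were left out. No column of other samples was present. The 55341 symbols match those of GENCODE M21, and reads were not realigned.

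Counts were tested in R 4.3.3 with edgeR 4.0.16 (TMM factors, filterByExpr, quasi-likelihood test, GSK-126 against DMSO on group alone), with calls at a Benjamini-Hochberg adjusted p under 0.05 over 16729 genes. The submitters name DESeq2 for normalization, and DESeq2 1.42.0 was run as an alternative. Correlations of deviations were at least 0.487 between libraries of the same number and at most 0.00638 between others. For this reason the fit with a replicate block is printed beside each result. Deviations from a group mean cancel within the group, so the low values between others follow in part from the high ones and are not separate evidence. The pairing comes from the numbers in the titles and from this check. The biological coefficient of variation was 24.0% on group alone and 9.74% with the block. No library was a copy of another (chi-square per degree of freedom 9.05 or more). Depth limits precision through the counts. No interval from counting alone is given, since the fits add the spread between cultures or, with the block, that of the difference between pairs.

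Ratios used a pseudocount of 0.5 counts and an exact permutation test over libraries (scipy 1.17.1). The genes named are the 7 subunit genes, the 2 partner genes of each list with the smallest p on group alone, any partner gene that passed with the block, and 3 like genes per subunit gene. Values of some genes that this rule names, and of some other subunit genes, are not reported here. The members, lists and tests were chosen with earlier results of these data known. Alternatives were other scaling factors, other filters, DESeq2, the block, a pseudocount of 5 counts for the ratios, and each library or pair left out. Block fits with other scaling factors were chosen after seeing the data. Both fits were also run on counts simulated from the block fit of these data with known changes. Such counts hold the pairing by design, so they cannot test it.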

Additional observations from a re-analysis of the deposited data

How the results depend on the processing

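Over all genes tested, edgeR on group alone called 0 higher and 0 lower, also with other scaling factors, with at least 10 counts in every library and without any 1 library, by quasi-likelihood test with Benjamini-Hochberg adjustment. Calls appeared with no filter (9 higher, 1 lower), with DESeq2 (19 and 2) and with the replicate block (561 and 851), where DESeq2 gave 351 and 600. Block fits with other scaling, chosen after seeing the data, gave 582 and 837 (relative log expression), 727 and 698 (upper quartile) and 714 and 707 (total counts). Block fits without 1 pair gave 417 higher and 671 lower (pair 1), 337 and 496 (pair 2) and 558 and 719 (pair 3). In every one of these block fits 1 subunit gene was called higher and 3 lower, against 0 without the block. For the partner genes 1 was called higher in each block fit, and 14 were called lower with the block, 12 with DESeq2 and the block, 14 with relative log expression, 13 with upper-quartile and 13 with total-count scaling, and 10 to 12 without 1 pair, against 0 on group alone. Of the 15 partner calls, 10 held in each block fit without 1 pair. Of the values of single subunit genes under an alternative, 103 kept direction and side of the threshold, 32 passed it only under the alternative, and 5 changed sign, namely Gabra4 without DMSO replicate 2 (-0.10), DMSO replicate 3 (-0.09) or GSK-126 replicate 1 (-0.15) and Gabrb1 without DMSO replicate 1 (0.15) or GSK-126 replicate 2 (0.01). The cause of these changes was not tested. Without 1 library, log2 fold changes on group alone ranged from -1.66 to -0.61 for Gabra6, -1.41 to -0.48 for Gabrd, -0.98 to -0.33 for Gabrb2, -0.52 to -0.26 for Gabra3, -0.15 to 0.57 for Gabra4 and -0.36 to 0.15 for Gabrb1. Gabra3 had 50 to 118 counts per library, the fewest of the 7 genes.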
